A study of Homo sapiens with 3 samples.

Results

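The genes that make and sense prostaglandins and leukotrienes were examined in cultured TK-10 cells, which derive from a human renal cell carcinoma. They comprised 10 of the 22439 genes named on the arrays: PTGS1, PTGS2, PTGES, PTGIS, HPGD, PTGER2, PTGER4, PTGFR, ALOX5 and ALOX5AP. The genes were chosen by their pathway with their signals and ratios on these arrays already known, so their ratios are given as a description and with no test. The data were 3 single-colour Agilent arrays, 1 each of cells given 0.1% DMSO as vehicle, cordyceps at 750 μg/mL or sunitinib at 10 μM for 48 h. Sunitinib is an inhibitor of receptor tyrosine kinases. The labels name cordyceps, a fungus, whereas the study's methods name cordycepin, an adenosine analogue made by Cordyceps, at another concentration. The files do not settle which was given, and the array is called the cordyceps array here. According to the labels, all 3 cultures grew with 10% fetal bovine serum, 10 mM nicotinamide, 10 μM troglitazone (an agonist of the nuclear receptor PPARγ) and 16.7 μM zinc sulfate. The labels give DMSO for the vehicle cells only. With 1 array per condition there was no replicate, so no p-value or replicate SD can be given, and a difference between arrays may be one between cultures, hybridisations or treatments, which cannot be told apart.

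Prostaglandins and leukotrienes are lipid mediators made from arachidonic acid, which is released from membrane phospholipids. In the prostaglandin branch, the cyclooxygenases PTGS1 and PTGS2 make prostaglandin H2, terminal synthases turn it into the individual prostanoids, G protein-coupled receptors sense them, and HPGD inactivates them. In the leukotriene branch, 5-lipoxygenase (ALOX5), helped by its partner protein ALOX5AP, makes leukotriene A4. Prostanoids are known in the kidney for their part in blood flow and in the handling of salt and water, whereas 5-lipoxygenase and its partner are best known in leukocytes.

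The value of a gene is the background-subtracted processed signal of its probe, in arbitrary units of intensity, with the error that the scanner software reported for that spot. The error covers the spot and not the culture. Arrays were compared after each signal was divided by the 75th percentile of its own array, which was 165 on the vehicle array, 138 on the cordyceps array and 78.2 on the sunitinib array, and the quotient is given as a percentage of that percentile. Whether a probe was well above background was taken from the software. The lowest signal that passed was 11.1% of the 75th percentile on the vehicle array, 21.9% on the cordyceps array and 23.5% on the sunitinib array, so a low signal was harder to detect in treated cells. A gene counts as compared when it passed on 1 or both of the arrays set against each other. If the dimmer array did not pass, the lowest signal that passed there took the place of any signal below it. The ratio is then a bound, written "at least", and no ratio is given where that bound is not above 1. A dimmer signal above that lowest signal was kept, so its value is a plain ratio, though grouped with the bounds. Bounds leave out the spot error. A gene was counted as higher or lower when its ratio, or its bound, exceeded 2-fold.

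**Figure D1:**
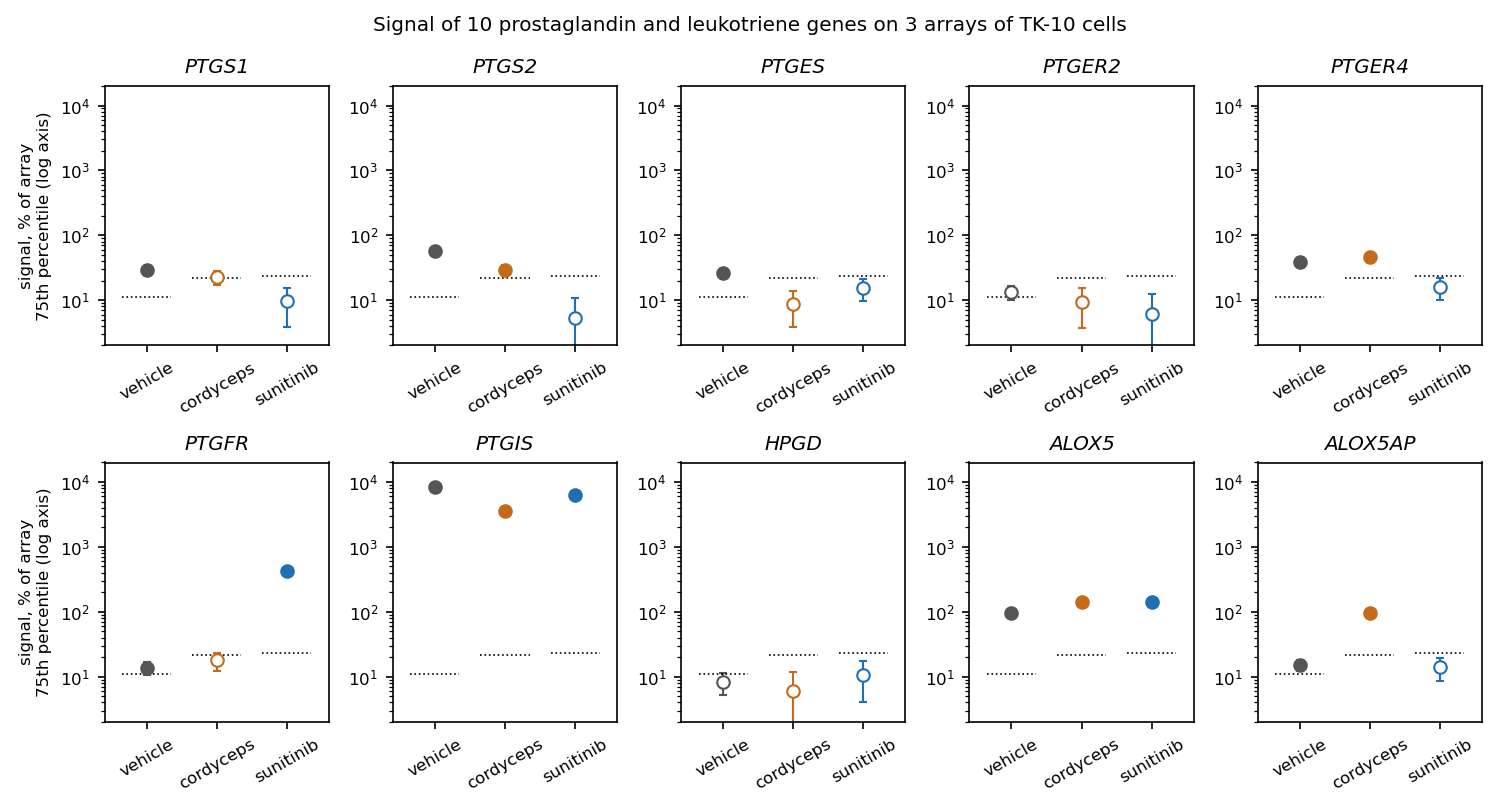
Processed signal of each of the 10 genes on the 3 arrays, as a percentage of the array's 75th percentile on a log axis. Filled circles are well above background and open circles are not, bars are the software's spot error (cut at the lower edge of the axis), and dotted lines mark the lowest signal that passed on that array; PTGS2 was at 57.8% on the vehicle array and is an open circle with sunitinib, and PTGFR was at 424% on the sunitinib array.

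Of the 10 genes, 8 were well above background on the vehicle array, 5 on the cordyceps array and 3 on the sunitinib array. Over all probes the share was 45.52%, 37.78% and 38.28%, also lower on the treated arrays, so nothing is read from the fall among the 10. PTGIS and ALOX5 were detected on all 3 arrays, and PTGER2 and HPGD on none. In each comparison the remaining 8 genes were compared, and 7 of them had a ratio or a bound. The exceptions were PTGFR with cordyceps and ALOX5AP with sunitinib. With cordyceps, ALOX5AP was the 1 gene more than 2-fold higher and PTGIS the 1 gene more than 2-fold lower, where 2.93% and 2.74% of the 14773 genes compared were higher and lower. With sunitinib, PTGFR was the 1 gene more than 2-fold higher and PTGS2 the 1 gene more than 2-fold lower, where 6.41% and 6.49% of 14898 genes were higher and lower. Over the 7 genes, with bounds taken at their value, the median log2 ratio was -0.28 with cordyceps and -0.30 with sunitinib, against -0.01 and -0.03 over all genes with a ratio or a bound. Since the genes were picked with these ratios in view, nothing is read from the counts.

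**Figure D2:**
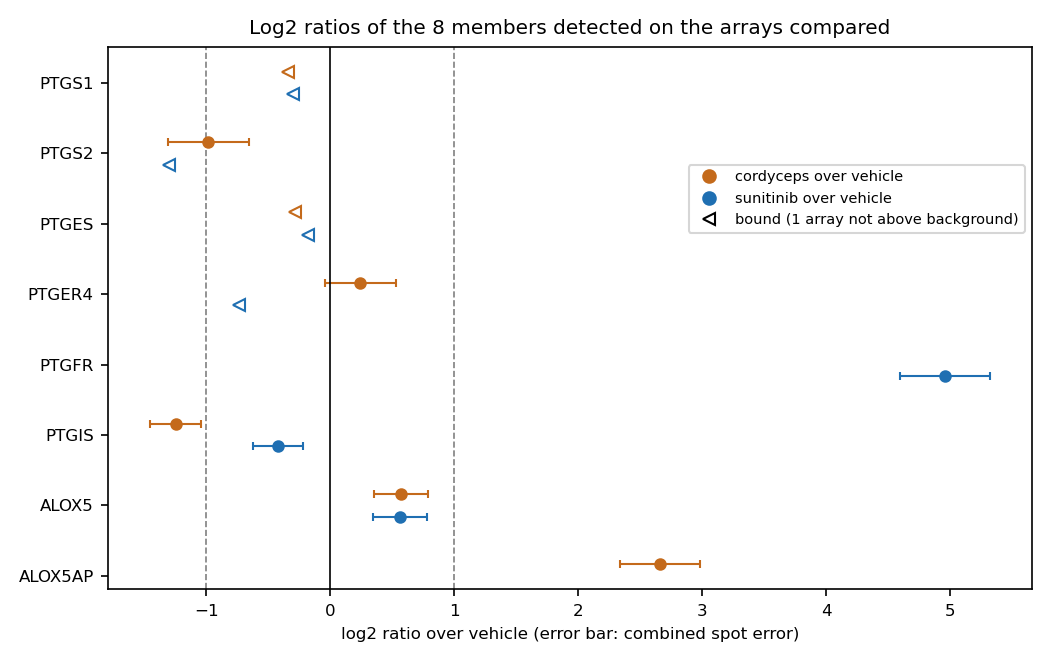
Log2 ratio over vehicle of the 8 genes compared, 7 in each comparison, with cordyceps in orange and sunitinib in blue. Circles are ratios measured on both arrays with the combined spot error as bars, and open triangles are bounds. The triangle of PTGS1 with cordyceps is a plain ratio grouped with the bounds. Dashed lines mark 2-fold, and ALOX5AP with cordyceps (2.66) and PTGFR with sunitinib (4.96) lie to the right of them.

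Both cyclooxygenases had their highest signal in vehicle-treated cells, though no difference is read for PTGS1, as given below. PTGS2, the inducible cyclooxygenase, had processed signals of 95.1 ± 10.4 with vehicle, 40.3 ± 8.0 with cordyceps and 4.2 ± 4.2 with sunitinib. These were 57.8%, 29.3% and 5.36% of the 75th percentile, and the sunitinib value was not well above background. PTGS2 was therefore at least 2.46-fold lower with sunitinib, whereas the cordyceps ratio was a log2 value of -0.98 ± 0.33 (combined spot error), or 1.98-fold lower, just inside the 2-fold limit. The log2 ratio for cordyceps was past that limit in 2 of 11 alternative settings. These were the 75th percentile taken over detected probes only (-1.01) and no scaling (-1.24). It was -0.76 with median scaling and -0.40 with normexp background correction. The sunitinib bound was a log2 value of -1.30, but with normexp background correction the ratio was -0.68, short of 2-fold.

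PTGS1, the constitutive cyclooxygenase, was detected in vehicle-treated cells alone. Its signal was 47.5 ± 6.5 on the vehicle array, 31.5 ± 7.9 on the cordyceps array and 7.5 ± 4.5 on the sunitinib array, or 28.9%, 22.8% and 9.63% of the 75th percentile. With cordyceps it was 1.26-fold lower, a plain ratio, because its signal exceeded the lowest signal that passed there. With sunitinib the loss of detection allowed only a bound of at least 1.23-fold lower. These log2 values of -0.34 and -0.30 were smaller than their combined spot errors, 0.41 in each, so no difference is read from them. A second PTGS1 probe, for the same transcript, passed on no array.

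The 250 bases upstream of the annotated start of PTGS2 are shown because PTGS2 was the 1 gene of the 10 counted as lower with sunitinib. They lie on the minus strand at chr1:186680424-186680673 of GRCh38.p14 and are printed 5′ to 3′ from the RefSeq promoter table, with motif matches in capitals.
PTGS2: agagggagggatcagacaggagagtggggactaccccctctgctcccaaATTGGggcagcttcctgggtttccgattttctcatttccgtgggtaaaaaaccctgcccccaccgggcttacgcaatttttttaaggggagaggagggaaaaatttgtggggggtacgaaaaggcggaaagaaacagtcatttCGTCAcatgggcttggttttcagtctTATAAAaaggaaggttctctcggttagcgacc
Both strands of each window were searched for 7 motifs. The first were the TATA box (written as TATAAA), the GC box (letters GGGCGG), the CCAAT box (by its name) and the cyclic AMP response element core (letters TGACG). The others were the E-box (letters CACGTG), the AP-1 site (letters TGANTCA) and the kappa B site (letters GGGNNTTCC). The PTGS2 window held a TATA box from base -32 to -27 counted from the start, a cyclic AMP core on the opposite strand from -58 to -54 and a CCAAT box on the opposite strand from -201 to -197. Of 35116 such windows in the table, 10.7% held the TATA box, 21.2% the cyclic AMP core and 32% the CCAAT box. A match is a description of the letters and was not tested as a binding site.

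Of the terminal synthases, PTGIS had a measured ratio in both comparisons. PTGIS, prostacyclin synthase, had processed signals of 13743 ± 1374 with vehicle, 4850 ± 485 with cordyceps and 4875 ± 487 with sunitinib. The unscaled signals were thus close on both treated arrays, but after scaling the treated arrays differed, at 3518% with cordyceps and 6234% with sunitinib against 8349% with vehicle. The log2 ratio was -1.25 ± 0.20 with cordyceps, 2.37-fold lower and the 152nd lowest of the 13030 genes measured on both arrays. With sunitinib it was -0.42 ± 0.20, the 2886th lowest of 12995, and with no scaling it was -1.50. PTGIS with cordyceps stayed past 2-fold in 11 of 11 alternative settings, from -1.50 to -1.03.

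PTGES, the inducible synthase of prostaglandin E2, was detected in vehicle-treated cells alone. Its signal was 43.8 ± 6.0, 12.1 ± 6.9 and 12.0 ± 4.4 on the vehicle, cordyceps and sunitinib arrays, or 26.6%, 8.79% and 15.4% of the 75th percentile. The bounds were at least 1.22-fold lower with cordyceps and at least 1.13-fold lower with sunitinib. These log2 bounds of -0.28 and -0.18 were smaller than their combined spot errors of 0.38 and 0.40, so they are no firm minimum. HPGD, the dehydrogenase that starts the breakdown of prostaglandins, had signals of 13.7 ± 5.2, 8.1 ± 8.2 and 8.4 ± 5.1 and passed on no array, so no ratio is given.

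The 3 prostaglandin receptors among the 10 genes differed from each other. PTGER2, a receptor for prostaglandin E2, had signals of 21.8 ± 5.3, 13.0 ± 7.9 and 4.8 ± 4.9 on the vehicle, cordyceps and sunitinib arrays, which passed on none. PTGER4, the other receptor for prostaglandin E2 among the 10 genes, had signals of 64.5 ± 7.8, 63.9 ± 9.9 and 12.6 ± 4.6. These were 39.2%, 46.3% and 16.1% of the 75th percentile. Its cordyceps ratio of 0.24 ± 0.28 (log2) was smaller than its error and turned to -0.01 with no scaling. With sunitinib, PTGER4 was not well above background and was at least 1.67-fold lower. This log2 bound of -0.74 lay inside the 95% limit of its spot errors (0.79), and it passed 2-fold under median scaling (-1.07).

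PTGFR, the receptor for prostaglandin F2α, had the highest ratio of all 12995 genes measured on both the sunitinib and vehicle arrays. The signal of its probe was 22.4 ± 5.0 on the vehicle array, 24.7 ± 7.6 on the cordyceps array and 331.5 ± 39.4 on the sunitinib array. These were 13.6%, 17.9% and 424% of the 75th percentile, and the cordyceps value was not well above background. The log2 ratio with sunitinib was 4.96 ± 0.36, or 31.1-fold. The vehicle signal lay close to the lowest signal that passed there, 18.2, and with normexp background correction the log2 ratio was 2.45. With cordyceps no ratio is given.

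The PTGFR ratio rested on 1 of 3 probes. The probe named above targets transcript NM_001039585. A second probe for the same transcript gave signals of 4.0, 6.9 and 4.1 on the vehicle, cordyceps and sunitinib arrays, and a probe for NM_000959 gave 22.5, 8.4 and 4.7. Neither passed on any array, so the higher signal with sunitinib was seen with 1 probe and not with the other two. Among the 48 spots around the bright spot on the sunitinib array, 0 exceeded their signal on both other arrays by more than 16-fold.

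**Figure D3:**
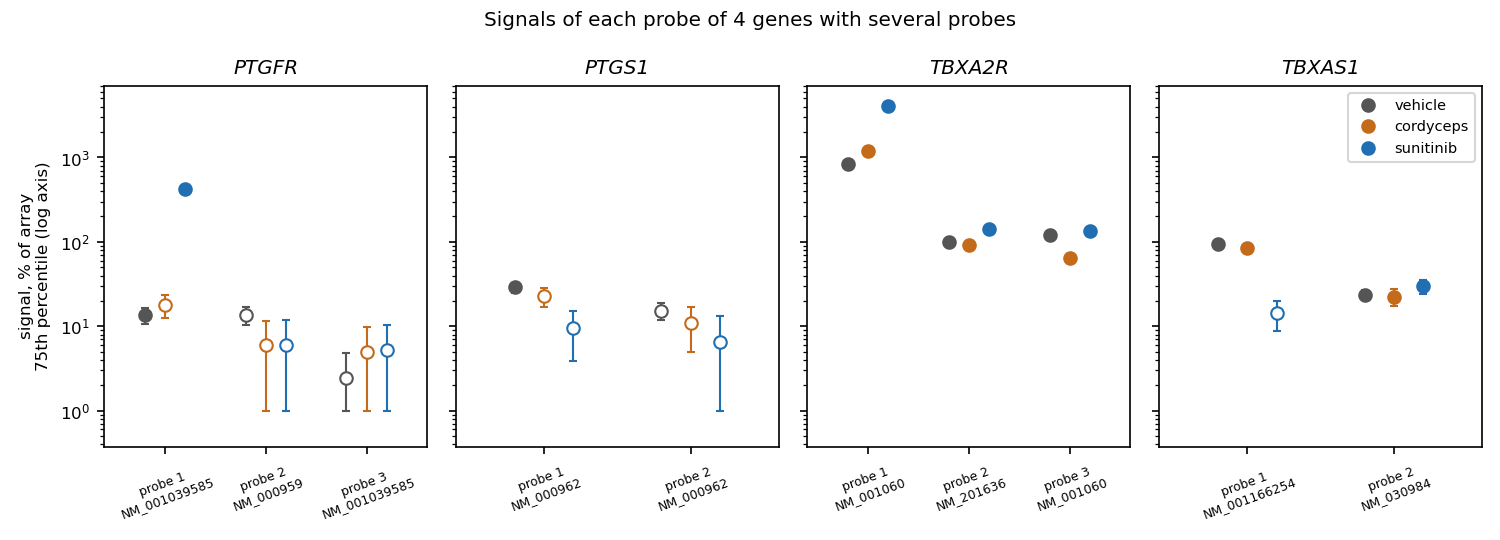
Signal of every probe of 4 genes with several probes, PTGFR, PTGS1, TBXA2R and TBXAS1, as a percentage of the array's 75th percentile on a log axis, with the transcript each probe targets. Filled circles are well above background, open circles are not, and bars are the software's spot error, cut at 1% where they would pass it; 1 PTGFR probe reached 424% with sunitinib while the other two are drawn as open circles on every array.

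The 250 bases upstream of the annotated start of PTGFR, on the plus strand at chr1:78490724-78490973, are shown because of this ratio.
PTGFR: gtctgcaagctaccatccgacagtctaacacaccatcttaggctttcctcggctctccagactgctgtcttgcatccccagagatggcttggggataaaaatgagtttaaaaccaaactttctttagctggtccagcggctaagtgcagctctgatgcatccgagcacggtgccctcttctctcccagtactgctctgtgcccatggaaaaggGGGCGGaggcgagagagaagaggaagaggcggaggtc
They held a GC box from base -37 to -32, which was also found in 42.6% of the windows, and none of the other motifs searched. The share of G and C in the window was 54.0%, against 50.4% for PTGS2 and a median of 58.0% over all windows.

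Of the leukotriene genes, ALOX5AP passed 2-fold with cordyceps and ALOX5 did not. ALOX5AP, the 5-lipoxygenase-activating protein, had signals of 25.3 ± 4.8 with vehicle, 133.7 ± 15.0 with cordyceps and 10.9 ± 4.3 with sunitinib, or 15.4%, 97.0% and 14.0% of the 75th percentile. The cordyceps array stood above the others, and the sunitinib value was not well above background. The log2 ratio with cordyceps was 2.66 ± 0.32, or 6.32-fold, the 45th highest of the 13030 genes measured on both arrays. A streak of 567 bright spots crossed the cordyceps array and held no probe of the 10 genes. With the streak left out, ALOX5AP was the 5th highest of 12899 genes. With normexp background correction its log2 ratio was 1.14, still past 2-fold. No ratio is given for sunitinib, because the lowest signal that passed on that array was above the vehicle value after scaling.

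ALOX5, the 5-lipoxygenase itself, was detected on every array. Its signal was 159.5 ± 16.7 with vehicle, 198.1 ± 21.4 with cordyceps and 111.8 ± 12.3 with sunitinib, or 96.9%, 144% and 143% of the 75th percentile. Its log2 ratio was 0.57 ± 0.22 with cordyceps and 0.56 ± 0.22 with sunitinib, 1.48-fold in each, short of the 2-fold limit. The sunitinib ratio was past the 95% limit of its spot errors (0.43) but was -0.51 with no scaling, so its direction rests on the scaling.

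The 250 bases upstream of the annotated start of ALOX5AP, on the plus strand at chr13:30713235-30713484, are shown because ALOX5AP was the 1 gene of the 10 counted as higher with cordyceps. The start in the table need not be that of the transcript the probe targets, NM_001629.
ALOX5AP: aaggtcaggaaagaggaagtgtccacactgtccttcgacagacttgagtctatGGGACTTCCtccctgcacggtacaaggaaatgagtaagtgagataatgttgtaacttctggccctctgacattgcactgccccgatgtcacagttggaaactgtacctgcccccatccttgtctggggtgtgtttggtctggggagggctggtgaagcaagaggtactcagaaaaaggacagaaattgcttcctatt
They held a kappa B site from base -197 to -189, found in 5.78% of the windows, and none of the other motifs. Kappa B matches also lay in the windows of PTGER4, whose cordyceps log2 ratio was 0.24, and PTGER2, which passed on no array. No window was at hand for PTGIS or ALOX5, so these genes were not searched for any motif. NF-κB is the transcription factor known to bind such sites, and its binding was not measured on these arrays.

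**Figure D4:**
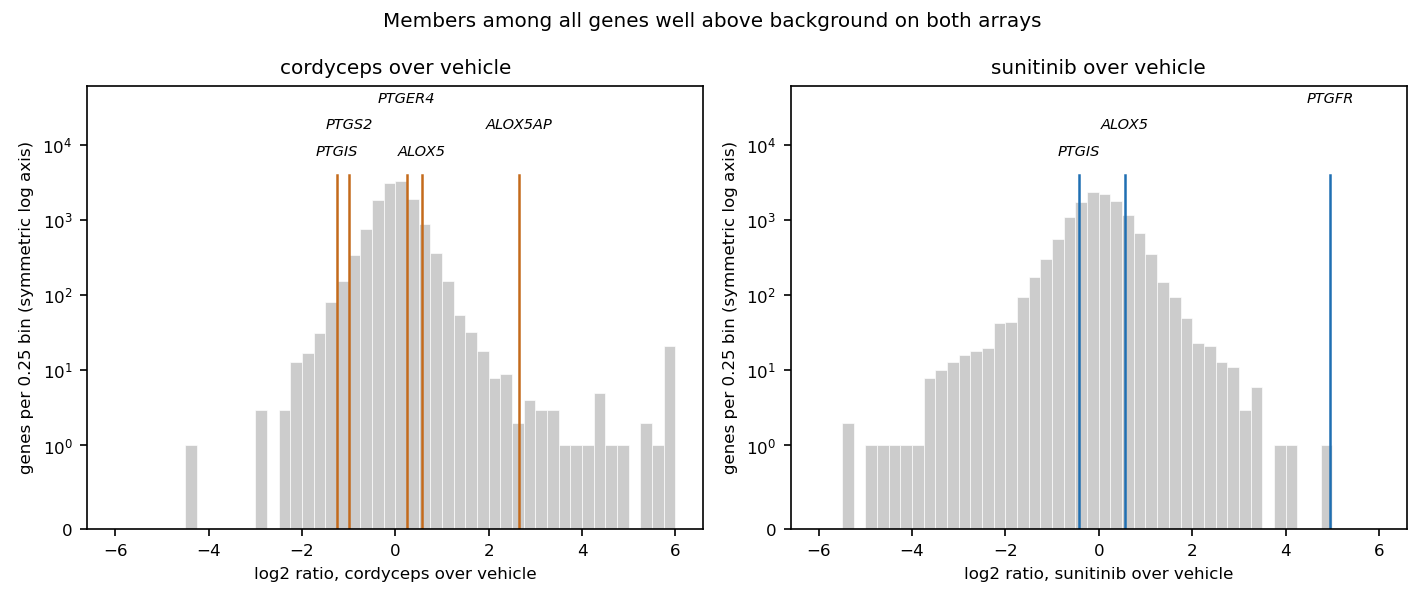
Number of genes per 0.25 bin of log2 ratio over vehicle, on a symmetric log axis, for genes well above background on both arrays, with lines at the genes of the pathway; the outermost bins gather all ratios beyond 6 in size. ALOX5AP lies in the right tail with cordyceps, and PTGFR is the highest gene with sunitinib.

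Markers of other cells were read beside these genes, since ALOX5AP and ALOX5 are leukocyte genes. Of the 9 renal epithelial markers on the array, 8 were well above background on every array, among them PAX8 and EPCAM. Of 7 leukocyte markers, 5 were detected with vehicle, 2 with cordyceps and 3 with sunitinib, and their summed signal was 585%, 405% and 513% of the 75th percentile. The markers did not move together. CD14 was at 421%, 271% and 148% on the vehicle, cordyceps and sunitinib arrays, making up most of the vehicle and cordyceps sums, whereas SPI1 was at 70.5%, 91.8% and 244%. PTPRC was at 11.2%, 8.96% and 58.5%, not well above background with cordyceps, and the T cell marker CD3E passed on no array. No other PTPRC probe was well above background with sunitinib, so the higher PTPRC signal there rests on 1 probe. The 4 fibroblast markers summed to 3890%, 980% and 556% of the 75th percentile, lower on both treated arrays. COL1A1 made up most of each sum, at 3225%, 775% and 492%. DCN and LUM were also lower on both treated arrays, and COL3A1 passed on no array. The part of these markers in the ratios was not tested. The study's methods describe array RNA of TK-10 cells and name no other cell type for it. In bulk RNA, fewer cells of a type and less RNA per cell cannot be told apart.

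Beyond the 10 genes, a list of 54 other genes of the pathway was read, of which 53 were on the array and 24 were detected on no array. In each comparison 29 were compared, and 26 of them had a ratio or a bound. With cordyceps, 0 were more than 2-fold higher and 1 was lower (PTGDS, 3.45% of the 29), where 2.93% and 2.74% of all genes compared were higher and lower. With sunitinib, 1 was higher (TBXA2R, 3.45%) and 4 were lower (PTGDS, TBXAS1, AKR1B1 and ABCC4, 13.79%), where 6.41% and 6.49% of all genes were. The median log2 ratio of the 26 was 0.20 with cordyceps and 0.01 with sunitinib.

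Of the 9 other prostanoid synthases, 8 were compared, with 1 lower with cordyceps and 3 with sunitinib. PTGDS, the synthase of prostaglandin D2, was lower on both treated arrays, with signals of 1758, 619 and 263 on the vehicle, cordyceps and sunitinib arrays. Its log2 ratio was -1.25 ± 0.20 with cordyceps and -1.67 ± 0.21 with sunitinib, or 2.38-fold and 3.18-fold lower. AKR1B1, an aldose reductase that can also make prostaglandin F2α, had signals of 34237, 18332 and 7872 and log2 ratios of -0.65 and -1.05. TBXAS1, thromboxane synthase, had signals of 157.6, 115.7 and 11.3, was not well above background with sunitinib and was at least 4.08-fold lower there. A second TBXAS1 probe, for another transcript, gave a log2 ratio of 0.33 ± 0.34 with sunitinib, smaller than its error, so the lower signal was seen with 1 of its 2 probes.

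The thromboxane receptor TBXA2R was the 1 of 6 other prostanoid receptors that was compared. Its probe gave signals of 1376, 1646 and 3193 and log2 ratios of 0.51 with cordyceps and 2.29 ± 0.20 with sunitinib, or 4.89-fold higher. A second probe for the same transcript had log2 ratios of -0.92 ± 0.24 with cordyceps and 0.15 ± 0.21 with sunitinib, and a probe for another transcript had -0.13 ± 0.22 and 0.52 ± 0.22. The cordyceps ratios thus differed in direction between the probes of 1 transcript, and with the probes averaged the gene was no longer counted as higher with sunitinib. ABCC4, which exports prostaglandins, had signals of 120, 94.7 and 21.3 and was not well above background with sunitinib. It was 2.68-fold lower there, a log2 ratio of -1.42 ± 0.38. This is a plain ratio and not a minimum, because the signal exceeded the lowest signal that passed on that array.

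No gene past 2-fold was found among the phospholipases, the leukotriene synthesis enzymes or the leukotriene receptors. Of 12 phospholipase A2 genes, which release arachidonic acid, 6 were compared, among them PLAAT3 with log2 ratios of 0.18 and -0.19 for cordyceps and sunitinib. Of 8 leukotriene synthesis enzymes, 5 were compared, among them MGST3, a microsomal glutathione transferase, with log2 ratios of 0.24 and 0.01. The 5 other lipoxygenases were not detected on any array. Of 5 leukotriene and oxo-eicosanoid receptors, 3 were compared, among them LTB4R2, a receptor for leukotriene B4, with log2 ratios of -0.27 and -0.02. Of the 9 genes of transport and breakdown, 6 were compared and ABCC4 was the 1 past 2-fold. PTGR1, a reductase that breaks down both kinds of mediator, had log2 ratios of 0.37 and 0.52.

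**Figure D5:**
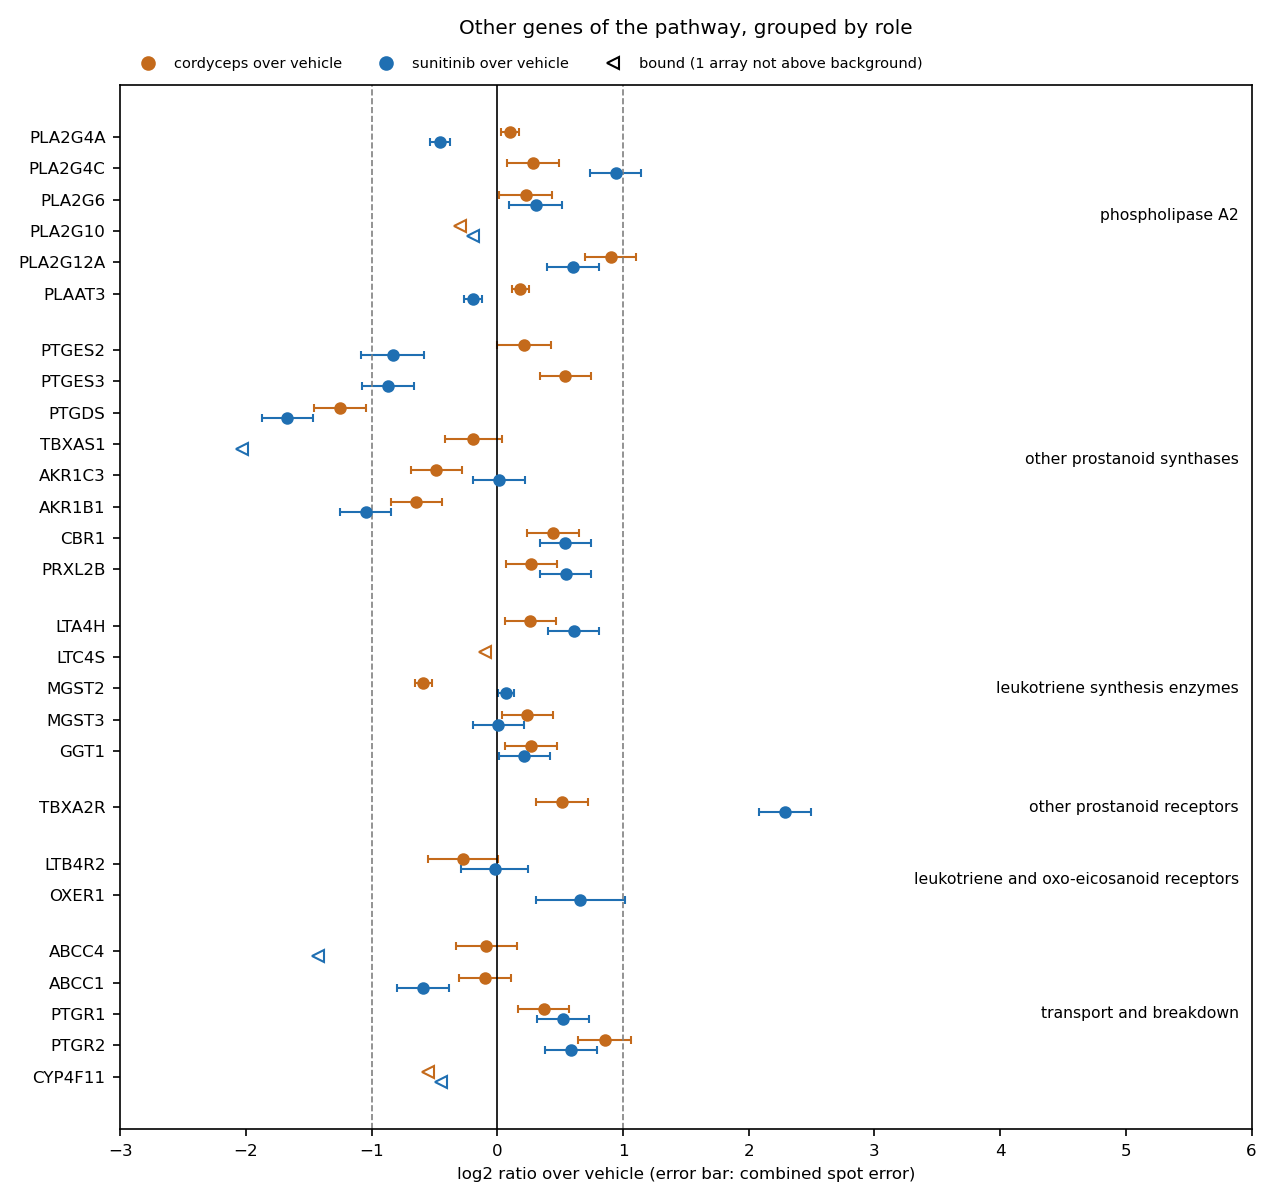
Log2 ratio over vehicle of the other pathway genes that were compared, grouped by role, with cordyceps in orange and sunitinib in blue. Circles are ratios measured on both arrays with the combined spot error as bars, and open triangles are bounds. The triangle of ABCC4 with sunitinib is a plain ratio grouped with the bounds. Dashed lines mark 2-fold. TBXA2R with sunitinib (2.29) lies to the right of them, and PTGDS lies to the left in both comparisons.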

How the data were processed

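Total RNA of TK-10 cells was hybridised to 3 single-colour (Cy3) arrays of 62976 spots. The authors deposited scanner output from Feature Extraction 11.5.1.1. Its processed signal is an intensity on a linear scale after background subtraction, not scaled between arrays. The study's methods describe a red over green ratio, another array and significance analysis of microarrays, none of which was applied to these single-colour arrays, and only the 2-fold limit was used. Control spots and spots marked as outliers (103, 121 and 63 on the vehicle, cordyceps and sunitinib arrays) were left out, repeated spots were averaged, and each log2 intensity was set against the 75th percentile of all 58201 probes on that array. Of these probes, 45.52%, 37.78% and 38.28% were well above background, which limits what low signals can show. Probes were named by accession through a RefSeq table of GRCh38.p14, used for names since the files state hg19, which gave 31104 named probes. Where a gene had several probes, the one of highest mean scaled signal over the 3 arrays stood for it. Combined errors are the software's spot errors, added in quadrature on the log2 scale, with a 95% limit. The genes named are the 10 members, the pathway genes past 2-fold and 1 gene of each role. Members and gene lists were chosen with earlier results of these data known. A total of 12 alternatives to the processing were tried. Software was R 4.3.3 with limma 3.58.1 and Python 3.11.15 with pandas 2.3.3, numpy 2.4.6, matplotlib 3.10.9 and scipy 1.17.1. The normexp alternative, run in limma, used an offset of 50 and then quantile normalization between arrays. The calculations were tested on simulated arrays for the comparison of cordyceps over vehicle with 15356 genes, where 192 of 200 changed genes were called. This is a pooled count, and calls among the other genes are not given. How genes near the lowest signal that passed, or near the 2-fold limit, are called cannot be read from it.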

Additional observations from a re-analysis of the deposited data

How the results depend on the processing

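In both comparisons, 1 of the 10 genes was more than 2-fold higher under all 12 alternatives. Under cordyceps, 2 rather than 1 were lower with the percentile over detected probes, with no scaling and with no filter. Under sunitinib, 2 rather than 1 were lower with median scaling, 5 with no scaling, 4 with no filter and 0 with normexp or when both arrays had to be well above background. PTGS2 with sunitinib had a log2 ratio of -0.68 with normexp.

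Of the other pathway genes, 2 were higher with cordyceps under median scaling, against 0, and with no filter 4 were higher and 4 lower. With sunitinib, 17 were higher with no filter and 0 with probes averaged, against 1, and 16 were lower with no scaling and 2 when both arrays had to be well above background, against 4. Over all genes, cordyceps gave 734 higher and 222 lower with median scaling, 273 and 833 with no scaling, 162 and 169 with normexp, and 1615 and 964 with no filter, against 433 and 405. Sunitinib gave 517 and 1927, 158 and 7993, 361 and 488, and 6232 and 1497 under the same alternatives, against 955 and 967. The share of higher genes among those called was 51.67% for cordyceps and 49.69% for sunitinib, and was 76.78% and 21.15% with median scaling, 24.68% and 1.94% with no scaling and 62.62% and 80.63% with no filter. Median scaling moved the median log2 ratio of all genes by 0.22 and -0.33, and no scaling by -0.26 and -1.07. The cause of other differences was not tested.

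Signals near background limit PTGFR and ALOX5AP, whose vehicle values lay just above the lowest signal that passed. They leave bounds for PTGES, and for PTGS1 with sunitinib. No paired analysis was possible because each condition had 1 array.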
